A study of Homo sapiens with 4 samples.

Results

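In total RNA of OVCAR3 cells, 9 genes of the tight junction were followed: the claudin genes CLDN1, CLDN3, CLDN4, CLDN7, CLDN12 and CLDN16, the occludin gene OCLN, the tricellulin gene MARVELD2 and the scaffold gene TJP1. They were taken by gene symbol, and each of the 9 matched 1 of the 62696 gene rows. OVCAR3, an established line from a human high-grade serous carcinoma of the ovary, was grown in RPMI with serum in both groups. The 3 KD libraries came from a derivative of the line with a short hairpin RNA knockdown of the pseudogene transcript ANAPC1P2 (KD 1, KD 2 and KD 3, the sets of the labels), and 1 library came from wild-type OVCAR3 cells (WT). No library is labelled as a hairpin control, so carrying a hairpin and losing ANAPC1P2 cannot be told apart. The labels do not say whether the 3 sets were separate cultures or hairpins, and any p-value measures only the spread between these libraries, possibly a technical one.

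Tight junctions seal the space between neighbouring epithelial cells and separate the apical from the basolateral membrane. Claudins span the membrane 4 times and form the strands, some as barriers and some as pores for ions. Occludin and tricellulin belong to the MARVEL family, with tricellulin placed where 3 cells meet, and ZO-1, the product of TJP1, ties the strands to actin from the cytoplasmic side. CLDN3, CLDN4 and CLDN7 are commonly abundant in ovarian carcinoma, and CLDN3 and CLDN4 are receptors of a Clostridium perfringens enterotoxin.

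The target itself was nearly absent from all libraries. ANAPC1P2 is given in 2 rows, of which 1 had 0 reads in every library and the other had 0, 8.55 and 8.89 normalized counts in KD (0, 11 and 8 reads) and 15.5 in WT (14 reads), under the filter for testing, so its loss rests on few reads. Per library, 42871815 to 56216398 reads were counted in genes in KD and 27868718 in WT. The WT library held RNA that the KD libraries lacked or had less of. The summed level of 7 erythroid markers was 1.55 to 3.79 normalized counts in KD and 14866 in WT, with HBB, HBA1, HBA2, HBD and SLC4A1 at 0 reads in all 3 KD libraries. The sum of 11 leukocyte markers was 195 to 211 in KD and 1260 in WT, and LYZ, CD68, ITGAM and FCGR3B had 0 reads in KD. Sums of 10 fibroblast markers (537 to 673 in KD, 1341 in WT), 9 endothelial markers (943 to 1165 in KD, 1401 in WT) and 10 neural markers (7883 to 9500 in KD, 7385 in WT) lay closer together, although NEUROD6 and CHRM2 had 0 reads in KD and 2374 and 192 normalized counts in WT. The 10 ovarian epithelial markers had reads in every library, with a sum of 103913 to 115838 in KD and 553714 in WT. That sum is mostly MUC16 (458890 in WT) and PAX8 (62685 in WT). Of the 10 markers 6 were called higher in KD and 3 lower, with a median log2 difference of 0.93. Over protein-coding genes tested 45.9% were called higher and 24.7% lower. The part of these markers in the differences below was not tested, and in bulk RNA fewer cells of a type and less RNA per cell cannot be told apart. Each difference compares the libraries as labelled.

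All 9 genes were well expressed, with at least 292 reads in each library, and all 9 passed the filter of a mean of 10 normalized counts. With the deposited scaling, 6 of the 9 were called higher in KD (limma-trend, Benjamini-Hochberg adjusted p under 0.05): CLDN4, CLDN12, CLDN16, OCLN, MARVELD2 and TJP1. Among all 23344 genes tested 31.4% were called higher, and among protein-coding genes 45.9% were. None of the 9 was called lower, against 36.3% of all genes tested and 24.7% of protein-coding ones, and 67.7% of all genes were called in either direction. All 3 KD values were above WT for the same 6 genes, as for 40.0% of genes tested, and below WT for CLDN3, as for 52.2%. edgeR on the recovered reads also called 6 of the 9 higher and 0 lower, where it called 34.2% of genes higher and 36.5% lower. CLDN1, CLDN3 and CLDN7 were not called. The median log2 difference (KD minus WT) of the 9 genes was 0.75, beside -0.28 over all genes tested and 0.28 over protein-coding genes tested. The calls of CLDN4 and TJP1 rested on the scaling: with equal library totals the median of all genes moved by -0.56, the genes called higher were CLDN12, CLDN16, OCLN and MARVELD2, and CLDN3 and CLDN7 were called lower. In that scaling 20.3% of all genes tested were called higher and 53.6% lower. The shares over protein-coding genes alone were not computed with equal totals, here or for the lists below. The median log2 difference with equal totals was 0.19 over the 9 genes. It was -0.28 over protein-coding genes tested and -0.84 over all genes tested, so the all-gene shares lean lower than a protein-coding background.

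**Figure D1:**
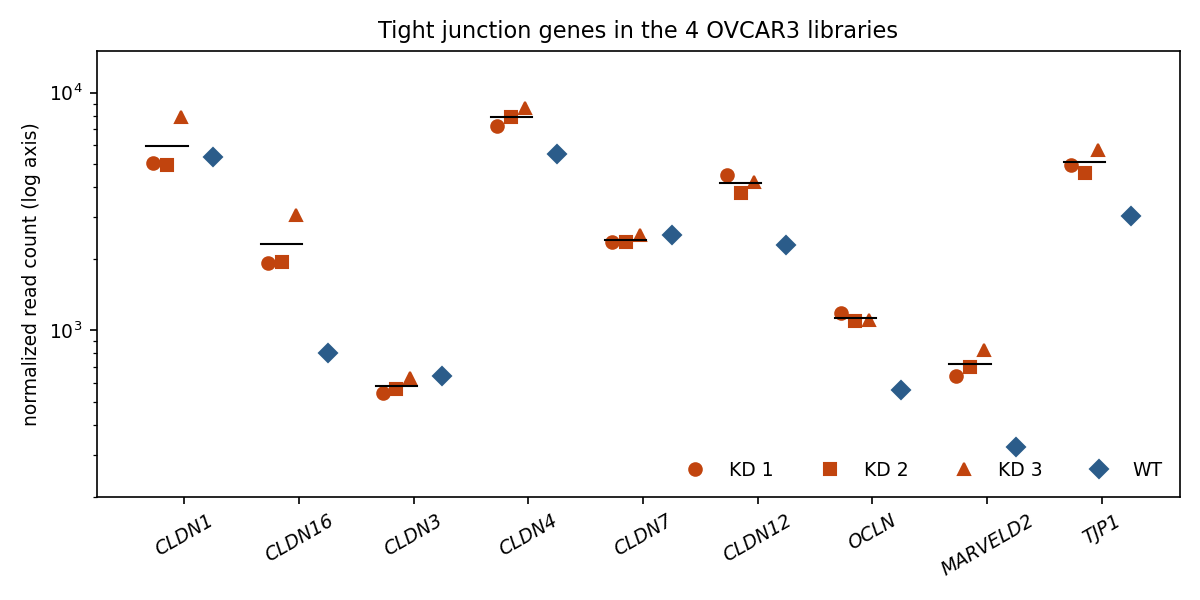
Normalized read counts (log axis) of the 9 genes, with 1 point for each KD library on the left, the KD mean as a line, and the single WT library on the right of each gene. KD and WT do not overlap for CLDN16, CLDN4, CLDN12, OCLN, MARVELD2 and TJP1, where WT lies below, while WT lies within the KD range for CLDN1 and CLDN7 and just above it for CLDN3.

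The MARVEL family genes OCLN and MARVELD2 were both called higher in KD under either scaling. MARVELD3, from the list of other membrane proteins below, did not share this. It had 285, 317 and 390 normalized counts in KD and 430 in WT (log2 difference -0.39, limma adjusted p = 0.135), and was called lower with equal totals. OCLN (chr5:69492292-69558104, plus strand, GENCODE 29, GRCh38, as for all positions of genes here) had 1181, 1095 and 1111 normalized counts in KD 1, 2 and 3 and 561 in WT. The 3 KD values lay close together and all well above WT. Occludin was the first integral membrane protein found in tight junctions. Its log2 difference was 1.01 ± 0.11 (SE; 95% interval 0.74 to 1.27; limma adjusted p = 4.14e-04), a 2.01-fold ratio with an exact counting interval of 1.83 to 2.21. MARVELD2 (chr5:69415065-69444330, plus strand) had 645, 702 and 826 normalized counts in KD and 324 in WT. All KD libraries were above WT, with KD 3 the highest of them. The log2 difference of MARVELD2 was 1.15 ± 0.17 (95% interval 0.75 to 1.55, limma adjusted p = 1.35e-03), with a ratio of 2.21. With equal library totals the log2 differences were 0.44 for OCLN (adjusted p = 0.0102) and 0.59 for MARVELD2 (adjusted p = 0.0146), still called higher.

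OCLN has a pseudogene copy, OCLNP1, which had 4, 17 and 12 reads in KD and 16 in WT. These are few beside the OCLN reads, of which WT had 505. The treatment of reads that match both was not given in the sources used here.

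Among scaffold genes, TJP1 (chr15:29699367-29968865, minus strand) had 4955, 4605 and 5754 normalized counts in KD and 3019 in WT. All 3 KD libraries were above WT. The log2 difference was 0.75 ± 0.14 (95% interval 0.42 to 1.09, limma adjusted p = 3.74e-03). Scaled to equal library totals the gap was smaller, at 108, 105 and 121 RPM (reads scaled by the library total) in KD and 97.5 in WT, and with equal totals the call was lost (log2 difference 0.19, adjusted p = 0.127). TJP3, from the plaque and polarity list below, did not share the rise. It had 709, 776 and 935 normalized counts in KD and 1094 in WT (log2 difference -0.45, limma adjusted p = 0.052). With equal totals TJP3 was called lower (-1.01, limma adjusted p = 2.24e-03).

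Among claudins, CLDN16 showed the widest gap of the 9 genes. CLDN16 encodes a claudin known from the thick ascending limb of the kidney, where it is needed for magnesium reabsorption. At chr3:190322541-190412143 on the plus strand, it had 1927, 1932 and 3062 normalized counts in KD and 802 in WT. KD 1 and KD 2 were nearly equal, KD 3 stood above them, and all were above WT. Its log2 difference was 1.49 ± 0.27 (95% interval 0.85 to 2.13, limma adjusted p = 3.22e-03), or 0.93 with equal totals (adjusted p = 0.0168). CLDN12, an atypical claudin that lacks the usual C-terminal PDZ-binding motif (chr7:90383721-90513402, plus strand), had 4494, 3792 and 4191 normalized counts in KD and 2296 in WT. The groups did not overlap. The log2 difference of CLDN12 was 0.85 ± 0.12 (95% interval 0.56 to 1.14, limma adjusted p = 1.17e-03), or 0.29 with equal totals (adjusted p = 0.0331). Part of the annotated exons of CLDN12 is shared with other genes on its strand: of its exonic length, 5.50% overlaps AC006153.1, 5.15% GTPBP10, 4.09% AC002456.2 and 2.98% CDK14 in GENCODE 29. How many of its reads fall there was not measured.

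CLDN4, a barrier-forming claudin (chr7:73799542-73832693, plus strand), had 7263, 7914 and 8585 normalized counts in KD and 5511 in WT. The KD libraries were all above WT with the deposited scaling. The log2 difference of CLDN4 was 0.52 ± 0.12 (95% interval 0.23 to 0.81, limma adjusted p = 9.50e-03). On the RPM scale the groups overlapped, at 158, 181 and 180 in KD and 178 in WT, and with equal totals the log2 difference was -0.043 (adjusted p = 0.709).

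CLDN3, CLDN7 and CLDN1 were not called with the deposited scaling. CLDN3, a barrier claudin encoded by a single exon (chr7:73768997-73770270, minus strand), had 543, 566 and 634 normalized counts in KD and 641 in WT. The highest KD value was almost at the WT value. Its log2 difference of -0.14 had a 95% interval of -0.48 to 0.19 (limma adjusted p = 0.384). CLDN7, whose protein binds EpCAM (chr17:7259903-7263983, minus strand), had 2343, 2355 and 2527 normalized counts in KD and 2521 in WT. WT lay inside the KD range, and the log2 difference of -0.07 had an interval of -0.31 to 0.17 (limma adjusted p = 0.564). In the GENCODE 29 exons of CLDN7, 10.8% of the length is shared with AC003688.1 on the same strand. Relative to the library total both genes were lower in KD. CLDN3 stood at 11.8, 13.0 and 13.3 RPM in KD and 20.7 in WT (log2 difference -0.71, limma adjusted p = 3.70e-03 with equal totals). CLDN7 stood at 51.0, 53.9 and 53.02 RPM in KD and 81.5 in WT (log2 difference -0.63, limma adjusted p = 1.09e-03 with equal totals). Their direction was the other way with median-of-ratios scaling, at 0.13 for CLDN3 and 0.21 for CLDN7, neither called.

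CLDN1, needed for the barrier of the skin (chr3:190305701-190322475, minus strand), varied more within KD than between the groups. It had 5076, 4966 and 7922 normalized counts in KD and 5378 in WT. KD 3 was 1.58 times the mean of KD 1 and KD 2, and WT fell between. The log2 difference of 0.12 had a 95% interval of -0.51 to 0.75 (limma adjusted p = 0.697), became -0.10 without KD 3 and -0.44 with equal totals, and was called in neither.

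**Figure D2:**
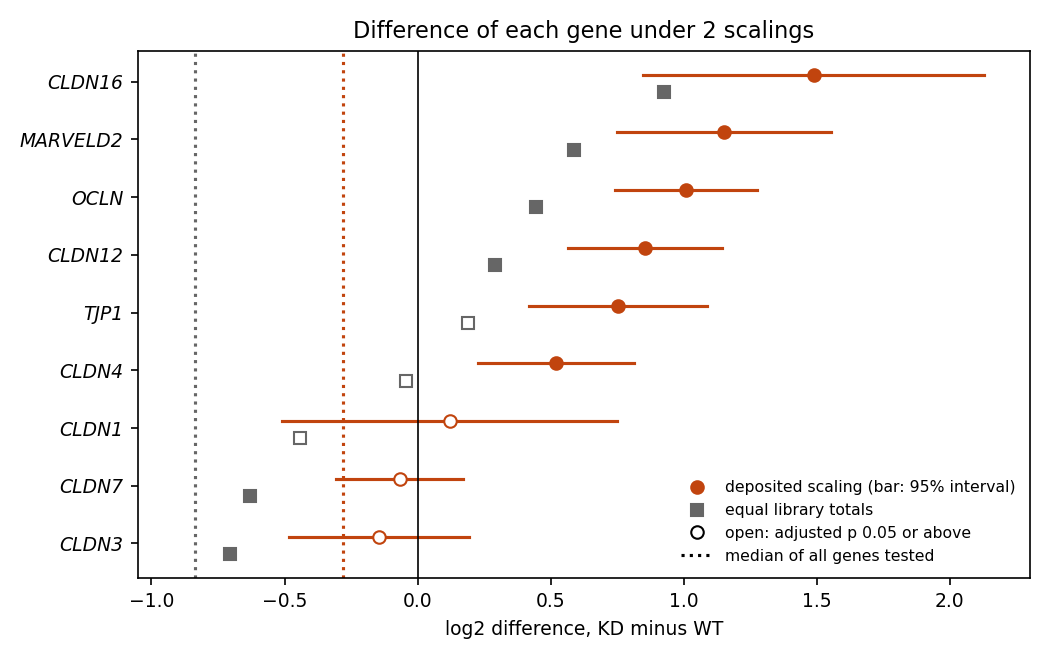
Log2 difference (KD minus WT) of each gene with the deposited scaling (circles, bars are 95% limma intervals) and with equal library totals (squares), filled where adjusted p is under 0.05, with dotted lines at the median of all genes tested under each scaling (-0.28 and -0.84). CLDN16, MARVELD2, OCLN and CLDN12 are filled and above 0 in both, while CLDN7 and CLDN3 are open in one and filled below 0 in the other.

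Ratios between 2 genes of one library do not depend on its scaling, and 6 of the 9 genes lie in 3 neighbouring pairs. CLDN1 and CLDN16 start on opposite strands of chromosome 3, CLDN3 and CLDN4 lie on opposite strands of chromosome 7 with 29271 bases between them, and MARVELD2 and OCLN lie on the same strand of chromosome 5 with 47961 bases between them (GENCODE 29, GRCh38). CLDN16 had 0.380, 0.389 and 0.386 reads per CLDN1 read in KD and 0.149 in WT. The 3 KD ratios were almost identical although both genes were highest in KD 3, and WT was far outside them. On the log2 scale the difference was 1.37, against an SD of 0.018 over KD. CLDN4 had 13.4, 14.0 and 13.5 reads per CLDN3 read in KD and 8.60 in WT, a log2 difference of 0.66 against an SD of 0.032. MARVELD2 had 0.547, 0.642 and 0.744 reads per OCLN read in KD and 0.578 in WT, so here WT lay inside the KD range. These ratios are descriptions, and with 1 WT library they have no replicate check. No counting interval was computed for them. An SD of 3 KD ratios can fall below counting error, so the gaps to WT should not be read in units of it.

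**Figure D3:**
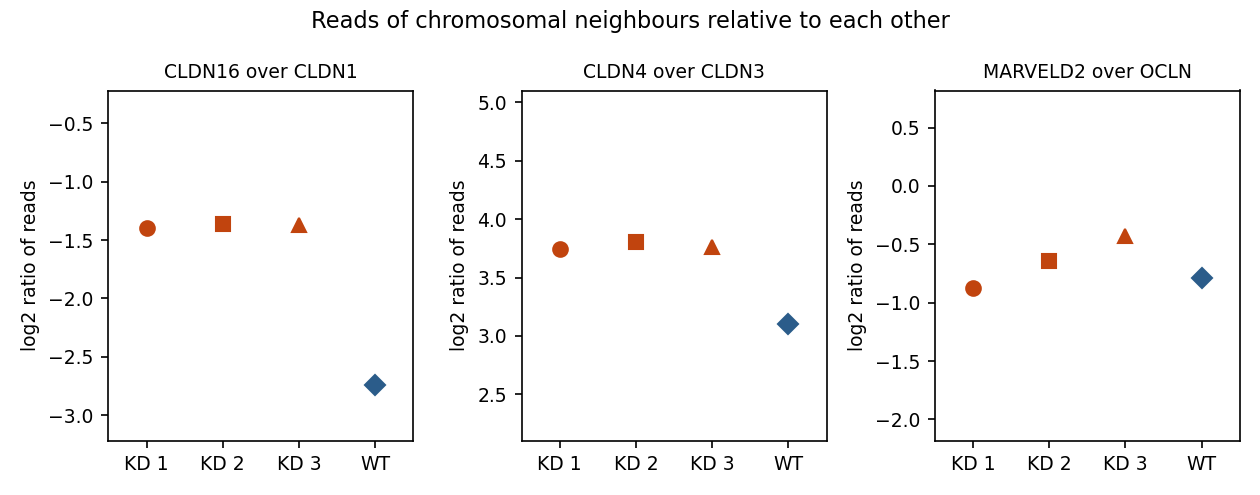
Log2 ratio of reads of each neighbouring pair in each library, with all panels spanning the same range on the log2 scale. CLDN16 over CLDN1 and CLDN4 over CLDN3 are level across KD 1, 2 and 3 and lower in WT, while MARVELD2 over OCLN in WT lies within the KD values.

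The genes on either side were looked at after the pairs' values were seen. Beside CLDN1 and CLDN16, P3H2, a collagen prolyl hydroxylase gene, had 992, 871 and 1102 normalized counts in KD and 634 in WT (log2 difference 0.63, limma adjusted p = 0.0108), and TMEM207 had 2 reads in KD 2 and none in the other libraries. Beside MARVELD2 and OCLN, the checkpoint gene RAD17 and the transcription factor IIH gene GTF2H2C were called higher, with log2 differences of 1.59 and 1.57 (limma adjusted p = 1.29e-04 and 2.33e-04). GTF2H2C has near-identical copies, so its reads are uncertain. Beside CLDN3 and CLDN4, ABHD11 was called higher (0.73, adjusted p = 1.55e-03) and METTL27 was not called (-0.19, adjusted p = 0.464). The shares over protein-coding genes tested were 45.9% higher and 24.7% lower, and no regional pattern was tested. The excess of P3H2 in KD 3, at 1102, was smaller than that of CLDN1 and CLDN16.

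The starts of CLDN1 and CLDN16 in GENCODE 29 are 65 bases apart, and the sequence between them is shown because the pair kept its ratio across KD. It is chr3:190322476-190322540 (GRCh38.p14, minus strand, from the RefSeq promoter table), with 80.0% G or C. In RefSeq the CLDN16 gene reaches further, from 190290361 to 190412138, and spans CLDN1 (190305707 to 190322446) on the other strand. No exon of the pair overlaps in GENCODE 29, but the annotation and strand setting of the counting were not given in the sources used here. Whether reads of the pair were mixed cannot be read from the files.
between CLDN1 and CLDN16: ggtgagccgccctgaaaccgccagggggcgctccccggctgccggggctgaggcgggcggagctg

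Promoters were searched for the E-box CAGGTG on both strands, which ZEB and SNAI repressors of epithelial genes bind, and for AACNNGTT, the core that grainyhead-like factors bind. The window was the 250 bases before each RefSeq start, and the 9 genes had 15 such windows, some of which overlap. An E-box stood in 4 windows, of CLDN7, OCLN (both of its windows) and TJP1, and no window held AACNNGTT. Of 35116 windows of all genes, 17.5% held an E-box and 3.00% held AACNNGTT. One of the 2 windows of CLDN7 held 4 E-boxes, and 43 of all windows (0.122%) held 4 or more. A match is a description of the letters only. One of the 4 windows of TJP1 (1 E-box, the other 3 having none) and the window of CLDN3 (none) are shown whole for contrast, with capitals at the E-box, and for CLDN7 and OCLN the 30 bases around E-boxes near a start. They are chr15:29969050-29969299, chr7:73770271-73770520 and chr17:7262479-7262508 on the minus strand and chr5:69492502-69492531 on the plus strand (GRCh38.p14, RefSeq), each written 5′ to 3′ on the strand of its gene.
TJP1: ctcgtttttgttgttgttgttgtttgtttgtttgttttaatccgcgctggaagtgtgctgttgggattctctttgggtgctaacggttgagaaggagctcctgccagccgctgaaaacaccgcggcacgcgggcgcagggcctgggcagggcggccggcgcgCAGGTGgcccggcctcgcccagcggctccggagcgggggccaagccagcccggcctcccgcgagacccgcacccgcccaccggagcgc
CLDN3: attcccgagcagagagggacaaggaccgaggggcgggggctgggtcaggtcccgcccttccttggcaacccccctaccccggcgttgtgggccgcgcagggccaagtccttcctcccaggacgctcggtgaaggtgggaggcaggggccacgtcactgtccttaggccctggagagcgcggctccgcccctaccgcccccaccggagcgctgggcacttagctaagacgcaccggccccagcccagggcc
CLDN7: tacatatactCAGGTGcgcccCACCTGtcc
OCLN: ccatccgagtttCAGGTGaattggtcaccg

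Of 6 genes for transcriptional repressors of epithelial genes, 4 were called lower in KD, 1 higher, and 1 was not tested. Over protein-coding genes tested 24.7% were called lower and 45.9% higher. ZEB1 had 0 reads in all KD libraries and 93.3 normalized counts in WT. SNAI2 had 1.90, 0 and 2.22 in KD and 48.9 in WT, ZEB2 had 29.1 ± 6.41 in KD (SD, n = 3) and 264 in WT, and TWIST1 had 68.2, 98.7 and 74.5 in KD and 198 in WT. TWIST2, at 0 in KD and 13.3 in WT, was under the filter. SNAI1 went the other way, at 1226, 1424 and 1306 normalized counts in KD and 564 in WT (log2 difference 1.22, limma adjusted p = 2.91e-04). The leukocyte and fibroblast marker sums given above were lower in KD too, and their part in the values of the repressors was not tested. Of the 3 genes with an E-box, OCLN and TJP1 were called higher with the deposited scaling and CLDN7 was not. Of the 6 without one, CLDN4, CLDN12, CLDN16 and MARVELD2 were called higher and CLDN1 and CLDN3 were not. With equal totals TJP1 and CLDN4 lost their calls, and CLDN7 and CLDN3 were called lower.

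Levels were compared between genes as RPKM, reads scaled by the length of the principal transcript in GENCODE 29 and by the library total. In KD the order was CLDN4 (41.6 ± 3.12 RPKM), CLDN1 (37.4 ± 8.99), CLDN7 (34.1 ± 0.959), CLDN12 (25.5 ± 1.71), CLDN16 (15.3 ± 3.75), TJP1 (14.0 ± 1.03), CLDN3 (9.97 ± 0.605), OCLN (3.84 ± 0.194) and MARVELD2 (3.68 ± 0.384; SD, n = 3). The KD ranges of CLDN4 and CLDN1, of CLDN1 and CLDN7, of CLDN16 and TJP1 and of OCLN and MARVELD2 overlapped, so those neighbours in the order do not differ beyond their spread. In WT the order began with CLDN7 (52.8 RPKM), CLDN1 (49.9) and CLDN4 (42.8), CLDN3 (16.3) stood above TJP1 (12.3) and CLDN16 (7.92), and OCLN (2.81) and MARVELD2 (2.43) were again lowest. The isoforms used in these cells are not known from the files, and the order depends on the length taken. With the length of all annotated exons, an alternative chosen after seeing the data, CLDN12 stood at 13.5 ± 0.903 RPKM in KD, next to CLDN16 at 14.0 ± 3.42, and CLDN7 at 21.1 ± 0.593. In WT the order then began with CLDN1 (47.4 RPKM), CLDN4 (37.9) and CLDN7 (32.7).

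The 6 claudins dominated the claudin transcripts of these cells. Of 24 claudin genes looked up, 17 to 19 had a read in KD and 20 in WT, and the 6 gave 82.9% to 84.3% of summed claudin RPKM in KD and 83.6% in WT. Within that sum the mix differed. CLDN16 made up 7.74% ± 1.26 in KD (SD, n = 3) and 3.47% in WT, and CLDN12 13.1% ± 1.72 in KD and 9.13% in WT. CLDN7 made up 17.4% ± 1.18 in KD and 23.2% in WT, and CLDN3 5.08% ± 0.214 in KD and 7.13% in WT. CLDN1, at 18.9% ± 3.00 in KD and 21.9% in WT, and CLDN4, at 21.2% ± 1.31 in KD and 18.8% in WT, moved by no more than 2 SD of the KD libraries. With exonic lengths the shares kept these directions, at 9.48% in KD and 4.07% in WT for CLDN16, 9.29% in KD and 6.19% in WT for CLDN12, 14.5% in KD and 18.4% in WT for CLDN7, and 6.83% in KD and 9.14% in WT for CLDN3. By these lengths CLDN4 made up 25.2% ± 1.69 in KD and 21.3% in WT, a gap of more than 2 SD. The 6 together then gave 88.7% to 90.6% in KD and 85.8% in WT, so WT lay below the KD range.

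Of 18 other claudins, 9 were tested, of which 2 were called higher and 5 lower, with a median log2 difference of -0.85. Over protein-coding genes tested 45.9% were called higher and 24.7% lower. CLDN10, whose product forms ion pores, rose to 880, 846 and 1047 normalized counts in KD, against 349 in WT (limma adjusted p = 4.16e-04), and CLDN11, known from myelin and Sertoli cells, to 180, 227 and 248, against 89.97 in WT. CLDN10 made up 10.8% ± 0.168 of claudin RPKM in KD and 5.21% in WT by its principal transcript of 949 bases, and 4.08% in KD and 1.88% in WT by all its 3380 exonic bases. CLDN15, a sodium pore claudin of the gut, fell to 288, 337 and 231 in KD, against 635 in WT (log2 difference -1.17, limma adjusted p = 4.71e-03), and CLDN20 to 18.01, 45.8 and 15.6, against 154. CLDN9 (66.3, 94.03 and 77.8 in KD, 142 in WT) and CLDN24 (4.74, 8.55 and 5.56 in KD, 39.98 in WT) were also called lower, though the CLDN24 value is uncertain, since the counting could have split or dropped reads shared with its near copy CLDN22, which had 0 reads in every library. The endothelial claudin CLDN5 was called lower at low level, with 9.48, 4.66 and 11.1 normalized counts in KD and 31.1 in WT. CLDN6, an oncofetal claudin, had 370, 250 and 310 in KD and 251 in WT and was not called, nor was CLDN23 (41.3 ± 6.78 in KD, 28.9 in WT). CLDN18 had 3.79, 1.55 and 0 in KD and 15.5 in WT and was under the filter. CLDN10 and CLDN11 were called higher under all 14 alternatives, with log2 differences of 0.84 and 0.70 at equal library totals. The lower calls were less stable: 5 stood with equal totals, but the calls of CLDN5 and CLDN9 were lost with TMM scaling (adjusted p = 0.0583 and 0.0773), without KD 1 (0.0806 and 0.125) and without KD 2 (0.0738 and 0.0595), and that of CLDN9 without KD 3 (0.105). DESeq2 called CLDN15 and CLDN20 lower and none of the other 3, and with no filter CLDN24 was the only 1 of the 5 still called.

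**Figure D4:**
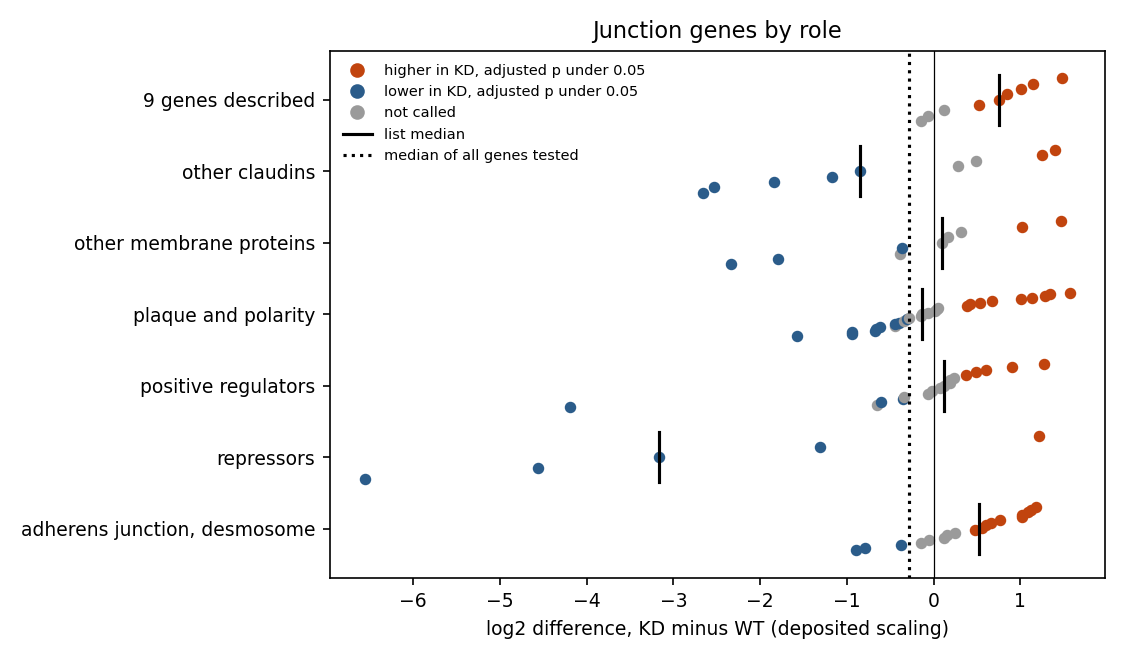
Log2 difference (KD minus WT, deposited scaling) of each tested gene, grouped by role, coloured by its call, with the median of each group as a bar and the median of all genes tested (-0.28) as a dotted line. The 9 genes have a median of 0.75 and no lower call, and the plaque and polarity genes spread to both sides. The group drawn as positive regulators was not sorted by direction of action. Of the 5 repressors 4 lie to the left, ZEB1, SNAI2 and ZEB2 far. TWIST1 lies less far, with 31.2% of all genes tested at or below it.

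Other membrane proteins of the junction went both ways: of 11 genes 9 were tested, 2 called higher and 3 lower. Over protein-coding genes tested 45.9% were called higher and 24.7% lower. CXADR, the coxsackievirus and adenovirus receptor, had 19431, 17882 and 21677 normalized counts in KD and 9650 in WT, and BVES (POPDC1) had 689, 672 and 825 in KD and 262 in WT (log2 differences 1.02 and 1.47, limma adjusted p = 1.01e-03 and 3.98e-04). The junctional adhesion molecule genes JAM3 and JAM2, also made by endothelial cells, were called lower, at 31.8 ± 4.48 in KD against 163 in WT and 59.2 ± 4.66 in KD against 208 in WT. LSR, the angulin that recruits tricellulin to tricellular corners, did not share the rise of MARVELD2: it had 5407, 5505 and 6149 normalized counts in KD and 7316 in WT (log2 difference -0.37, limma adjusted p = 0.0263). The second angulin gene, ILDR1, was not called (0.10, adjusted p = 0.591), and the epithelial F11R, which encodes JAM-A, had 1607, 1623 and 1843 in KD and 1508 in WT and was not called. With equal library totals 2 genes of the list were called higher and 6 lower, beside 20.3% and 53.6% of all genes tested. Among the 6 were MARVELD3 (log2 difference -0.95, limma adjusted p = 6.48e-03), F11R (-0.40, adjusted p = 9.89e-03) and ILDR1 (-0.46, adjusted p = 0.0265). The list median was then -0.46, beside -0.28 over protein-coding genes tested.

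The cytoplasmic plaque and polarity genes were split evenly, with 9 of 27 called higher and 9 lower (median log2 difference -0.13). Over protein-coding genes tested 45.9% were called higher and 24.7% lower. PARD6A, RAB13, YBX3 and PRKCI had the widest gaps among those called higher. PRKCI, the atypical protein kinase C of the PAR complex, had 15571, 14522 and 17513 normalized counts in KD and 7172 in WT. YBX3 (ZONAB), a factor that binds the SH3 domain of ZO-1, had 8762, 8351 and 8580 in KD and 3502 in WT (log2 difference 1.29, limma adjusted p = 1.00e-04). RAB13, a small GTPase of junction traffic, stood at 245 ± 12.7 in KD against 95.5 in WT, and PARD6A at 158 ± 57.9 in KD against 49.98 in WT. Among those called lower, CGNL1, MAGI2 and ARHGEF2 fell to 262 ± 35.1, 281 ± 35.5 and 1872 ± 82.2 in KD, against 503, 538 and 2980 in WT. ARHGEF2 (GEF-H1) is a RhoA activator held at the junction by cingulin, and cingulin itself (CGN) had 1936 ± 48.7 in KD and 1916 in WT. With equal library totals 4 of the 27 were called higher and 18 lower, beside 20.3% and 53.6% of all genes tested. The list median was then -0.69, beside -0.28 over protein-coding genes tested and -0.84 over all genes tested.

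Among 18 regulators of junction genes or proteins, 17 were tested, 5 called higher and 3 lower, beside 45.9% and 24.7% of protein-coding genes tested. The list was not sorted by direction of action. EPCAM, which stabilises CLDN7 and CLDN1 protein, had 6131, 6015 and 6942 normalized counts in KD and 2631 in WT (log2 difference 1.27, limma adjusted p = 1.97e-04). The splicing factor gene ESRP1, KLF5 and GRHL2, whose product activates claudin genes, were called higher, with log2 differences of 0.91, 0.60 and 0.49, and ESRP2 and the kinase gene WNK1 lower, with -0.60 and -0.35 (limma adjusted p at most 0.0398). With equal totals only EPCAM and ESRP1 of the list were called higher, and 12 were called lower, beside 20.3% and 53.6% of all genes tested. The list median was then -0.45, beside -0.28 over protein-coding genes tested. For comparison, 10 of 18 tested adherens junction and desmosome genes were called higher and 3 lower, with a median log2 difference of 0.52. Over protein-coding genes tested the shares were 45.9% higher and 24.7% lower, with a median of 0.28. PERP, CTNNB1, DSG2 and PKP2 were called higher, with log2 differences of 1.18, 1.12, 1.09 and 1.02. NECTIN4, CTNND1 and CDH1 were called lower, with -0.90, -0.79 and -0.37. With equal totals the counts were 5 higher and 7 lower, where 20.3% of all genes tested were called higher and 53.6% lower. The median of these junction genes was then -0.04, beside -0.28 over protein-coding genes tested.

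Across 5 equal classes of exonic length, the median log2 difference of protein-coding genes fell with length, 0.73, 0.51, 0.33, 0.18 and -0.10. The longest of the 9 genes, TJP1, with 11265 exonic bases, stood 0.85 above the median of its length class, OCLN 0.83, MARVELD2 0.82, CLDN12 0.67, CLDN16 0.98 and CLDN4 0.19 above theirs. The short CLDN3 (1274 bases) and CLDN7 (2492 bases) stood at -0.87 and -0.80 relative to the median of theirs, and CLDN1 at -0.39. These are positions within these 4 libraries, with no test.

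**Figure D5:**
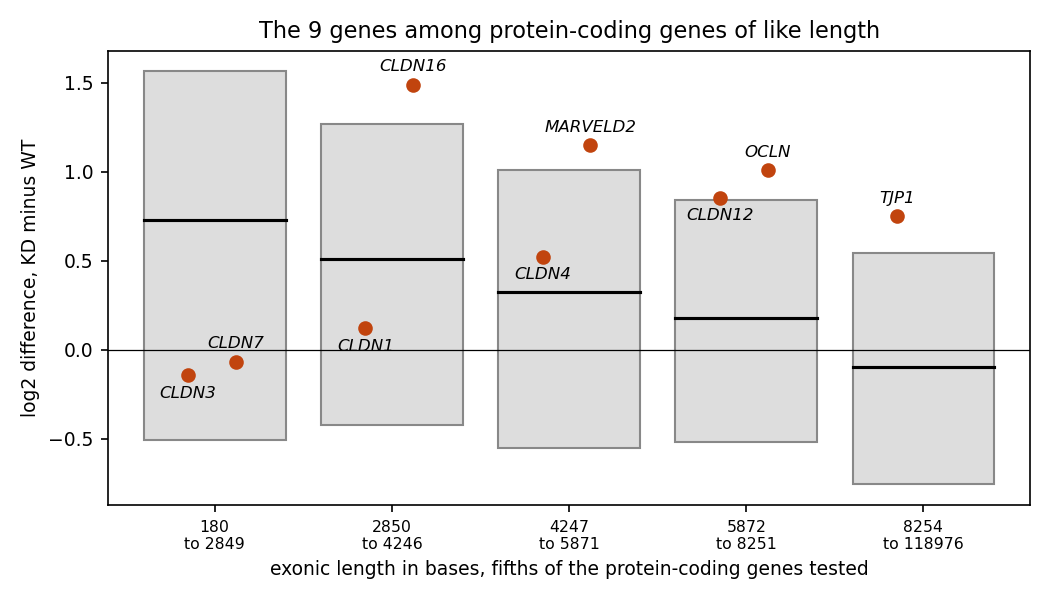
Log2 difference (KD minus WT) of the 9 genes (points) over the median (line) and the interquartile range (box) of the protein-coding genes tested in each of 5 classes of exonic length. CLDN16, MARVELD2, OCLN, CLDN12 and TJP1 lie above the boxes of their classes, and CLDN3, CLDN7, CLDN1 and CLDN4 lie inside theirs.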

How the data were processed

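Total RNA was depleted of ribosomal RNA and made into strand-marked libraries, per the labels' protocols. The authors deposited, as signal values, 1 normalized read count for each gene and library, for which STAR 2.7.11b, featureCounts 2.0.6, DESeq2 and the build hg38 are named in the submitters' processing notes. Annotation, strand setting and treatment of shared reads were not given in the sources used here. Dividing by the smallest step of each library gave whole reads for 100% of values, with a tolerance of 0.001 reads (27868718 to 56216398 per library). The members and gene lists were chosen with earlier results of these data known.

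The test was limma-trend (limma 3.58.1, R 4.3.3) on log2(normalized count + 1), two-sided, for 23344 genes whose mean normalized count reached 10, adjusted by Benjamini-Hochberg over all of them, threshold 0.05. Differences on this scale understate the change of low genes. The spread comes from the 3 KD libraries, and the lone WT library is assumed to vary like them. An exact permutation test of 1 value cannot go below p = 0.25 here. edgeR 4.0.16 and DESeq2 1.42.0 on recovered reads, other scalings, pseudocounts, filters, thinned reads and leaving out each KD library were alternatives. The main limma fit, edgeR and DESeq2 were tested on simulated data, and the other settings were not. Few genes were changed in that simulation, evenly in both directions, so it cannot speak to the dependence on scaling. Exact 95% intervals of read ratios cover counting error only. Annotation came from GENCODE 29 (92.9% of gene IDs found) and sequences from RefSeq (GRCh38.p14). Named list genes are up to 4 called per direction whose mean in the group where they are higher reaches 100, each repressor, and each claudin reaching 10 normalized counts in a library. Some genes that this rule names are not reported here.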

Additional observations from a re-analysis of the deposited data

How the results depend on the processing

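The calls of CLDN12, OCLN and MARVELD2 as higher held under all 14 alternatives, with log2 differences of 0.29 to 1.13, 0.44 to 1.29 and 0.59 to 1.43. With no filter, which adds many low genes to the fit, members called higher dropped to 3: CLDN4 (0.52, adjusted p = 0.072), CLDN16 (1.49, 0.0838) and TJP1 (0.75, 0.0635) lost their calls. With equal library totals, CLDN1 (-0.44) and CLDN4 (-0.043) changed sign, TJP1 lost its call (0.19), and CLDN3 (-0.71) and CLDN7 (-0.63) were called lower, 2 in all. With upper-quartile scaling CLDN1 changed sign (-0.35), CLDN4 lost its call (0.053), and CLDN3 (-0.61) and CLDN7 (-0.53) were again called lower, 2 in all. CLDN3 changed sign with median-of-ratios scaling (0.13) and DESeq2 (0.039), and CLDN7 with TMM (0.034), median-of-ratios (0.21), edgeR (0.035) and DESeq2 (0.11), none called. Of 99 listed genes beside the 9, 85 were tested. Of these 29 were called higher and 27 lower, against 16 and 52 with equal totals and 17 and 50 with upper-quartile scaling. Among all genes tested 31.4% were called higher and 36.3% lower with the deposited scaling, and 20.3% and 53.6% with equal totals. The equal-totals median was -0.51 over the 85, -0.28 over protein-coding genes tested and -0.84 over all genes tested. These scalings move every gene of a library together: the median of all genes moved by -0.56 with equal totals, by -0.46 with upper-quartile and by 0.28 with median-of-ratios scaling, and calls higher made up 46.4% of all calls with the deposited scaling, 27.5%, 30.7% and 56.9% in these. edgeR called 7973 genes higher and 8514 lower. Leaving out each KD library gave 6 members higher and 0 lower each time, 26 to 29 listed genes higher and 21 to 27 lower, and log2 differences of -0.10 to 0.24 for CLDN1, -0.21 to -0.10 for CLDN3, -0.10 to -0.05 for CLDN7, 0.46 to 0.58 for CLDN4 and 1.27 to 1.60 for CLDN16. No paired analysis was possible because the WT library carries no set number. Depth did not limit these genes, all with at least 292 reads in every library. The limit is the single WT library.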

Other observations

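KD 3 stood apart from KD 1 and KD 2 for the pair on chromosome 3. Its level was 1.58 times the mean of the others for CLDN1 and 1.59 times for CLDN16, and only 0.227% and 0.211% of 12766 genes with a KD mean of at least 100 normalized counts had a ratio as high (median over these genes 1.06). The ratio was 1.23 for MARVELD2, 1.20 for TJP1 and 0.976 for OCLN.

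For 7 of the genes the protein-coding gene with the nearest pattern is given here, by the distance between centred log2 values over the 4 libraries among 11724 genes. These were AMPD3 for CLDN1, BTN3A1 for CLDN3, GRAMD4 for CLDN4, FAM222A for CLDN12, TMEM178A for CLDN16, OSBPL9 for OCLN and TSPAN3 for TJP1. The distances were under 0.025 on the log2 scale except for CLDN1 (0.156) and CLDN16 (0.145), the genes with the widest spread in KD. With 4 libraries, no relation is read from these distances.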
